A study of Mus musculus with 12 samples.

Results

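The organ dependence of a leukaemia difference was measured gene by gene in mouse T-cell acute lymphoblastic leukaemia (T-ALL). It was taken as a double difference: the difference between T-ALL cells and normal cells in the spleen, minus the same difference in the thymus. All 12 libraries of the series entered it, and of 54351 genes in the count table, the 20897 that passed a filter on low counts were tested. The double difference was called (adjusted p below 0.05) for 875 genes. Since it also equals the organ difference of the leukaemia minus the organ difference of the controls, each of these genes was placed by which of the 2 organ differences was called.

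The 4 groups held 3 libraries each. LN3 spleen and LN3 thymus were T-ALL cells from organs of overtly ill mice of the strain C57BL/6 with the genotype LN3 tg. WT CD8 spleen cells and WT thymocytes came from tumour-free wild-type C57BL/6J mice. Organs were dissociated mechanically, and only 1 group was purified further: the WT spleen cells, which were enriched for CD8 by negative selection, with a purity given as 85 to 95%. The WT organ difference is therefore also a difference between enriched CD8 cells and all thymocytes, and organ and cell population cannot be told apart in it. The transgenes behind LN3, their promoter, the ages of the mice and whether spleen and thymus libraries came from the same mice were not stated in these sources. Sample titles give the libraries of both organs the same numbers (such as T-ALL1 thymus and T-ALL1 spleen), without saying that equal numbers are the same mouse. Nor is it stated that each library is a different animal, and the p-values below therefore cover only library-to-library spread, part of which may be technical. In such bulk samples, fewer cells of a type and less RNA per cell cannot be told apart.

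T cells are made in the thymus. There, thymocytes divide rapidly, rearrange their receptor genes with the RAG recombinase, pass through a stage with both co-receptors CD4 and CD8, and leave as mature cells that settle in the spleen and lymph nodes in a resting state. Resting mature cells have shut off recombination and division and carry homing, survival and cytotoxic genes instead. T-ALL arises from immature cells of this lineage and can spread from the thymus to the spleen.

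Library totals ran from 12694571 to 42483898 counts. T lineage markers, 10 of 10 of which were tested, held 0.462 to 0.516% of counts in LN3 spleen and 0.532 to 0.615% in LN3 thymus. The same markers held 0.2995 to 0.417% in WT CD8 spleen cells and 0.726 to 0.939% in WT thymocytes, and none was at 0 throughout a group. A single ribosomal RNA gene took 4.61 to 10.5% of counts in 6 libraries (LN3 spleen 1 to 3, LN3 thymus 2 and 3, WT thymocytes 3) and 0.440 to 1.45% in the other 6. In the spleen this share separates LN3 from WT libraries completely, and there the share and the genotype cannot be told apart. Results were therefore also computed with a term for this share. A further fit took 10 libraries, without LN3 thymus 1 and WT thymocytes 3, so that each organ difference lies among libraries of like share.

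The double difference was higher for 688 genes (3.29% of genes tested) and lower for 187 (0.895%), together 4.19% (edgeR quasi-likelihood test, Benjamini-Hochberg adjusted over all genes tested). Each of the 875 differed at least 2-fold. A positive value means that LN3 stood higher over WT in the spleen than in the thymus. The higher calls were 380 without WT CD8 1, 412 without WT CD8 3 and 431 without LN3 thymus 3. The lower calls were 76 without WT thymocytes 1, 83 without WT CD8 1, 93 without LN3 thymus 3, 105 without LN3 spleen 3 and 120 without LN3 spleen 2. The share of higher calls was 78.63%. With the term for the ribosomal RNA share it was 65.87% of 750 genes, of which 572 were also among the 875. In the 10 libraries of like share it was 65.27% of 858 genes, and 601 of the 875 were called again, with the same sign of the double difference for all 875.

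The leukaemia had far fewer calls between the organs than the controls. LN3 spleen was higher than LN3 thymus for 145 genes (0.694%) and lower for 6 (0.0287%). WT CD8 spleen cells were higher than WT thymocytes for 1513 genes (7.24%) and lower for 1773 (8.48%). The SE of the 2 differences was alike, with a median of 0.49 on the log2 scale in either. Without LN3 thymus 1 no gene was called between the LN3 organs, with 1214 at an unadjusted p below 0.05, against 1817 with all libraries. The same held in the 10 libraries of like share, with 0 called and 1416 at that unadjusted p. The 145 higher calls of the leukaemia were 6 without LN3 thymus 2, 45 to 51 without LN3 thymus 3, LN3 spleen 3 or LN3 spleen 1, 69 to 94 without any 1 WT thymocyte library, and 245 without WT CD8 3. The controls' 1513 higher calls were 717 without WT thymocytes 1, 843 without WT CD8 2, 858 without WT CD8 1 and 915 without WT thymocytes 2, and their 1773 lower calls 1013 without WT CD8 1 and 1179 without WT CD8 2.

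Of the 875 genes, 834 (95.31%) were called between the organs in the controls only, 18 in the leukaemia only, 3 in both and 20 in neither. The median absolute organ difference over the 875 was 0.41 (log2) in the leukaemia and 2.60 in the controls, against 0.35 and 0.57 over all genes tested. The control difference was the larger for 831 of the 875. Between the organs, the LN3 libraries of the 834 controls-only genes did not overlap for 131, against 11.5% of all genes tested, and the WT libraries did not overlap for 833, against 36.5% of all genes tested. The choice of these genes used both organ differences, so these counts are a description. A missed call does not show that the LN3 organs were alike. The 95% interval of the leukaemia difference lay within 1 on the log2 scale (a 2-fold difference either way) for 284 of the 834, and 86 had an unadjusted p below 0.05 there. With the term for the ribosomal RNA share 96.53% of called genes were controls only, and in the 10 libraries 97.31%. The 834 were 442 without WT CD8 1, 486 without LN3 thymus 3, 513 without WT CD8 3 and 514 without WT thymocytes 1.

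**Figure D1:**
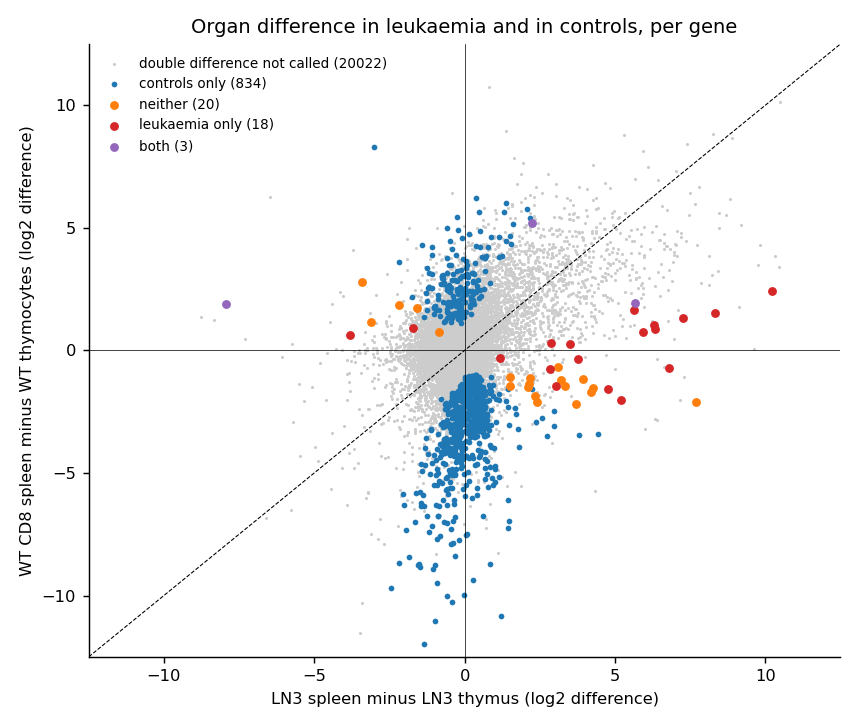
Organ difference of each tested gene in the leukaemia (x axis, LN3 spleen minus LN3 thymus, log2) and in the controls (y axis, WT CD8 spleen cells minus WT thymocytes, log2); the dashed line marks equal differences. The 834 controls-only genes lie in a vertical band around 0 on the x axis, where by the rule of their class none was called. The 18 leukaemia-only genes, which by rule were called there, lie mostly far to the right.

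Of the 16 programme lists, genes of receptor recombination and of the pre-T-cell receptor stage had the highest median double difference. Of 12 such genes tested, 8 were called higher (3.29% of all genes tested) and none lower (0.895%). The median was 4.80 (log2) against −0.08 over all genes tested. In the leukaemia none of the 12 was called between the organs by edgeR, DESeq2 or limma, and 2 had an unadjusted p below 0.05. Few genes of any kind were called there (0.694% higher, 0.0287% lower), so a count of 0 is near the share of all genes. An unadjusted p below 0.05 was found there for 1817 of all 20897 genes tested. In the controls 10 of the 12 were lower in spleen cells than in thymocytes, against 8.48% of all genes. The median organ difference was −0.45 in the leukaemia and −5.79 in the controls. With any 1 library left out, 7 to 9 were called. The list held 0.131 to 0.161% of counts in LN3 spleen, 0.165 to 0.337% in LN3 thymus, 0.0341 to 0.0460% in WT CD8 spleen cells and 0.767 to 1.04% in WT thymocytes.

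Rag1 encodes the catalytic subunit of the recombinase and lies at chr2:101638282-101649501 (GRCm38, minus strand). It had 234, 112 and 427 CPM (counts divided by each library's scaled total, on a common scale) in LN3 spleen and 922, 404 and 211 CPM in LN3 thymus. WT CD8 spleen cells had 1.64, 4.61 and 0.590 CPM and WT thymocytes 5308, 4374 and 4908 CPM. The LN3 libraries of both organs overlapped and lay between the WT groups, which stood far apart. The double difference was 10.07 ± 1.13 (log2, SE, n = 3 per group, edgeR adjusted p = 0.000741). The organ difference was −0.99 in the leukaemia (95% interval −2.45 to 0.47, adjusted p = 0.791) and −11.06 in the controls (adjusted p = 4.45e-05). Rag1 was thus higher than WT in the LN3 spleen (6.82, adjusted p = 0.000166) and lower than WT in the LN3 thymus (−3.25, adjusted p = 0.0127).

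Arpp21, a gene of immature thymocytes whose product binds RNA, had 138, 138 and 156 CPM in LN3 spleen and 234, 186 and 123 CPM in LN3 thymus. It had 1.42, 1.39 and 1.12 CPM in WT CD8 spleen cells and 457, 444 and 408 CPM in WT thymocytes. Its double difference of 8.06 ± 0.39 (adjusted p = 7.34e-07) had a leukaemia organ difference of −0.33 (95% interval −0.85 to 0.19), a narrow interval around 0. Dntt, the template-free polymerase that adds bases at receptor joints, had 628, 644 and 236 CPM in LN3 spleen and 649, 849 and 568 CPM in LN3 thymus. It had 5.51, 5.66 and 4.98 CPM in WT CD8 spleen cells and 1064, 998 and 1841 CPM in WT thymocytes, a double difference of 7.46 (adjusted p = 0.000128). Only the WT CD8 spleen cells stood apart by orders of magnitude.

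Ptcra, the pre-T-cell receptor alpha chain, varied widely among LN3 libraries, with 24.8, 3.67 and 24.7 CPM in LN3 spleen and 43.6, 47.5 and 4.02 CPM in LN3 thymus. WT CD8 spleen cells had 0.218, 0.348 and 0.394 CPM and WT thymocytes 25.7, 14.8 and 41.7 CPM. Its double difference of 5.51 (adjusted p = 0.0233) was no longer called in 11 of 24 other settings. The end-joining genes Xrcc6 (3.12) and Lig4 (2.88) were called as well, while Rag2 was at 4.71 with an adjusted p of 0.0568.

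**Figure D2:**
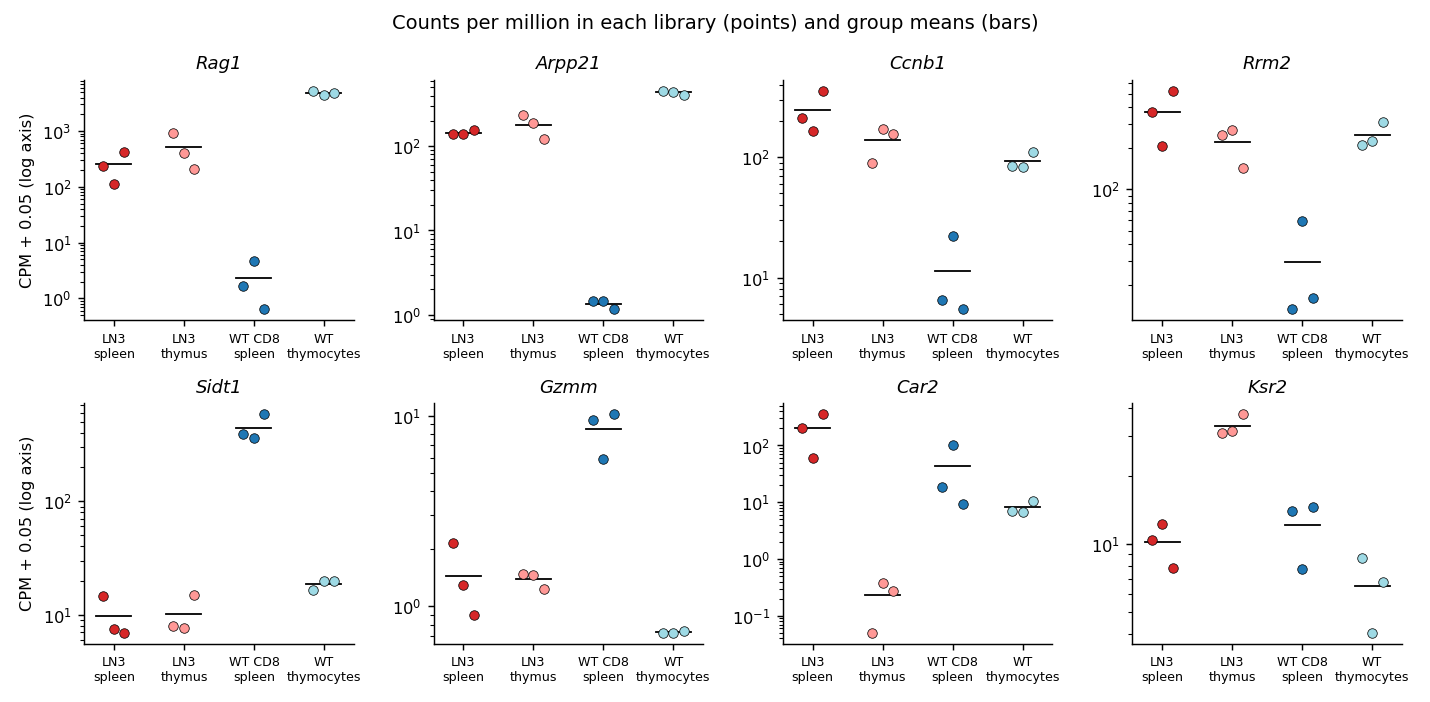
CPM of 8 named genes in each library (points; log axis, 0.05 added) with the group means (bars), n = 3 libraries per group. In Rag1, Arpp21, Ccnb1 and Rrm2 the WT CD8 spleen cells lie below the other 3 groups; in Sidt1 and Gzmm they lie above them; in Car2 and Ksr2 the LN3 thymus stands apart.

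Among co-receptors and lineage regulators, 5 of 15 genes were called higher (3.29% of all genes tested) and none lower (0.895%). The 5 were Cd4, Tox, Tox2, Patz1 and Satb1. That count was 2 without LN3 spleen 3, LN3 thymus 3, WT CD8 1, WT CD8 2 or WT thymocytes 1, and 3 without LN3 spleen 1, LN3 spleen 2, LN3 thymus 1 or WT CD8 3; it was 2 with the term for the ribosomal RNA share and 3 in the 10 libraries. No member was called between the LN3 organs by edgeR, where few genes of any kind were (0.694% higher, 0.0287% lower), and DESeq2 called 1. An unadjusted p below 0.05 was found there for 5 of 15, against 1817 of all 20897 genes tested. In the controls 9 were called, 1 higher and 8 lower (7.24% and 8.48% of all genes tested). Cd4 had 13.9, 20.7 and 6.94 CPM in LN3 spleen and 90.7, 15.1 and 22.4 CPM in LN3 thymus. It had 37.7, 17.7 and 5.07 CPM in WT CD8 spleen cells, an enrichment that removes CD4+ cells, and 1041, 776 and 1542 CPM in WT thymocytes. WT thymocytes alone stood high, and the double difference of 4.18 (adjusted p = 0.0444) was not called in 15 of 24 other settings. Tox2, a nuclear factor of the TOX family, was unlike Cd4. Its 46.7, 56.7 and 78.8 CPM in LN3 spleen and 26.1, 24.95 and 37.5 CPM in LN3 thymus exceeded the 0.394 to 1.58 CPM of WT CD8 spleen cells and the 4.99 to 7.47 CPM of WT thymocytes, so that LN3 was higher than WT in both organs.

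Notch receptors and targets, a pathway that drives T-cell commitment, split. Of 15 tested, Notch3 and Ptcra were called higher (3.29% of all genes tested) and Dtx1 lower (0.895%). None was called between the LN3 organs by edgeR, DESeq2 or limma, where few genes of any kind were (0.694% higher, 0.0287% lower). An unadjusted p below 0.05 was found there for 1. Notch3 had 205, 433 and 252 CPM in LN3 spleen and 502, 469 and 497 CPM in LN3 thymus. It had 3.11, 1.04 and 1.22 CPM in WT CD8 spleen cells and 121, 80.5 and 155 CPM in WT thymocytes (double difference 5.37, adjusted p = 0.000741). Dtx1, the ubiquitin ligase Deltex, moved the other way: 338, 468 and 604 CPM in LN3 spleen and 336, 540 and 537 CPM in LN3 thymus stood against 228, 180 and 343 CPM in WT CD8 spleen cells and 26.9, 15.9 and 48.8 CPM in WT thymocytes. Its double difference was −3.04 (adjusted p = 0.0100), with a leukaemia organ difference of −0.0028 (95% interval −0.86 to 0.85). Notch1 itself was higher in LN3 in both organs, with a double difference of 0.35 (95% interval −0.79 to 1.48, adjusted p = 0.757).

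Cell division genes had higher double differences of similar size. Of 20 genes of G2 phase and mitosis, 16 had a called, higher double difference (3.29% of all genes tested) and none a lower one (0.895%). Values of all 20 lay between 2.68 and 3.85 (log2, median 3.40). In the leukaemia none of the 20 was called between the organs by edgeR, DESeq2 or limma, nor had an unadjusted p below 0.05. Of all genes tested 0.694% were called higher there and 0.0287% lower, and 1817 of 20897 had such an unadjusted p. The leukaemia values ran from 0.23 to 0.81 (median 0.56), all above 0, with 95% intervals reaching as far as −1.06 and 1.85. All 20 were lower in WT CD8 spleen cells than in WT thymocytes (median −2.84), against 8.48% of all genes tested. LN3 exceeded WT for all 20 in the spleen (17.9% of all genes tested were higher there and 13.0% lower) and for none in the thymus (6.06% higher, 5.21% lower). Over all genes the balance turned with library totals as scaling, to 2529 higher and 3780 lower in the spleen against 3740 and 2713, and to 1021 and 1647 in the thymus against 1266 and 1088. Upper-quartile scaling turned it as well, to 2796 and 3913 in the spleen and 1095 and 1563 in the thymus. The 20 mitotic genes stayed higher in the spleen, and none was called in the thymus, under these scalings, RLE scaling and the term for the ribosomal RNA share. The call count was 16 with the term for the ribosomal RNA share, 20 in the 10 libraries of like share, and 15 to 20 without any 1 library.

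The promoters of 3 of these genes are shown because they hold both sequence elements known from mitotic genes: the CHR (cell cycle genes homology region, TTTGAA), bound by the DREAM and MuvB complexes, and the CCAAT box, bound by NF-Y. Each runs 250 bases before to 50 bases after the first start listed in RefSeq (GRCm38.p6), 5′ to 3′ on the gene's strand, with both elements on either strand in capitals (Ccnb2 chr9:70421505-70421804, minus strand; Cdk1 chr10:69352863-69353162, minus strand; Plk1 chr7:122159185-122159484, plus strand).
Ccnb2: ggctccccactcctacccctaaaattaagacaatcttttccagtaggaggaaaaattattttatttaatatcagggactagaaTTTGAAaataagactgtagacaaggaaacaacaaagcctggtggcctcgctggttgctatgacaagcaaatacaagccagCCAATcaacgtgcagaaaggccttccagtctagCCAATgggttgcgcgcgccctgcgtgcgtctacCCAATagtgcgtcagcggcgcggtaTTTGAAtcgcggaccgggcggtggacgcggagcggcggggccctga
Cdk1: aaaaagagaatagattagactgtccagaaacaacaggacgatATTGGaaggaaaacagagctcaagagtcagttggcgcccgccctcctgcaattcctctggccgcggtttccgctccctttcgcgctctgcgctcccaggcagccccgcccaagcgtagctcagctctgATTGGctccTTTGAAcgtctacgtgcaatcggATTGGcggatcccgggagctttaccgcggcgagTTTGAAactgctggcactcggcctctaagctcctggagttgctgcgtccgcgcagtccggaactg
Plk1: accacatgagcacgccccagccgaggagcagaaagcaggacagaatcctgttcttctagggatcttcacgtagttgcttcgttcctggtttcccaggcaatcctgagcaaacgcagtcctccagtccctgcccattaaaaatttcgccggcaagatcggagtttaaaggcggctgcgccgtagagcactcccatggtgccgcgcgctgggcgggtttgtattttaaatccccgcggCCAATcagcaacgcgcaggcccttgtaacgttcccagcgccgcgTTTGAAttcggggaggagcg

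Of the 20 genes, 16 had a promoter in the RefSeq table; TTTGAA or its reverse complement occurred in 11 of them (68.75%), against 13.73% of 12773 promoters of tested genes. CCAAT occurred in 14 of 16 (87.5%), against 38.4%. For all genes with a higher double difference these shares were 20.41% and 49.07% of 485 promoters, and for those with a lower one 14.06% and 38.28% of 128. E2F elements (GGCGGGAA or TTTGGCGC) occurred in 8 of 19 DNA replication promoters (42.11%) and in 0 of 16 mitotic ones, against 4.447%. The ISRE, the interferon-stimulated response element, was in 9 of 16 interferon response promoters (56.25%), against 3.351%. The E box CAGGTG was in 1 of 10 recombination gene promoters, against 18.34%. A match says that the letters are there, not that a factor binds.

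Ccnb1, cyclin B1, which takes cells into mitosis, had 213, 164 and 356 CPM in LN3 spleen and 89.5, 171 and 156 CPM in LN3 thymus. It had 6.44, 22.0 and 5.44 CPM in WT CD8 spleen cells and 84.9, 82.4 and 111 CPM in WT thymocytes. The 3 other groups overlapped or nearly so, and all lay above the WT CD8 spleen cells. Its double difference of 3.85 ± 0.70 (adjusted p = 0.00834) was called in all 24 other settings. Cdk1, the kinase partner of cyclin B, had 126, 81.4 and 163 CPM in LN3 spleen and 65.0, 96.9 and 69.4 CPM in LN3 thymus, against 3.66, 13.7 and 5.47 CPM in WT CD8 spleen cells and 49.1, 46.4 and 85.0 CPM in WT thymocytes. Mki67, a proliferation marker, was at 2.68 with an adjusted p of 0.0918. WT thymocytes 3 had 179 CPM of it, against 864 and 1000 CPM in the other WT thymocyte libraries.

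DNA replication genes also had higher double differences, with a smaller median. Of 24 tested, 14 were called higher (3.29% of all genes tested) and none lower (0.895%), with a median of 2.19. None was called between the LN3 organs by edgeR, DESeq2 or limma or had an unadjusted p below 0.05 there. Few genes of any kind were called between these organs (0.694% higher, 0.0287% lower). In the controls 20 were lower in WT CD8 spleen cells than in WT thymocytes, against 8.48% of all genes. The count of 14 varied with the setting. It was 3 with the term for the ribosomal RNA share and 3 in the 10 libraries. It was 8 without LN3 spleen 1 or WT thymocytes 3, 7 without LN3 thymus 1, 6 without WT thymocytes 1, 5 without LN3 spleen 3, LN3 thymus 3 or WT CD8 3, and 4 without WT CD8 1. Rrm2, the small subunit of ribonucleotide reductase, had 367, 206 and 525 CPM in LN3 spleen and 248, 271 and 142 CPM in LN3 thymus. It had 13.3, 58.3 and 16.2 CPM in WT CD8 spleen cells and 209, 224 and 312 CPM in WT thymocytes (double difference 3.82, adjusted p = 0.0128). Of the WT CD8 libraries, the second was the highest for Ccnb1, Cdk1 and Rrm2. It also held the highest sum of erythroid markers, 0.127% of counts against 0.0267 and 0.0135% in the first and the third, and of myeloid markers, 0.395% against 0.171 and 0.0262%. In LN3 spleen 1 to 3 the DNA replication genes summed to 0.473, 0.349 and 0.641% of counts, the mitotic genes to 0.421, 0.478 and 0.629%, and the erythroid markers to 0.545, 0.241 and 0.691%. Replication and erythroid sums were thus both highest in the third and lowest in the second library. In LN3 thymus 1 to 3 the 2 sums also had 1 order (replication 0.503, 0.4025 and 0.269%, erythroid 0.0608, 0.0452 and 0.0242%). In WT thymocytes 1 to 3 the orders differed. Replication genes summed to 0.274, 0.312 and 0.340% there and erythroid markers to 0.465, 0.0139 and 0.131%. The part of these other cells in the division results was not tested.

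Genes of mature T cells and of egress from the thymus had lower double differences. Of 20 tested, 4 were called lower (0.895% of all genes tested), Foxo1, Gimap4 and Gimap5 among them, and none higher (3.29%). The double difference was below 0 for all 20 (median −1.69). In the leukaemia 1 was higher in spleen (Cd44), against 0.694% of all genes. In the controls 15 were, against 7.24%. The count of 4 was 7 without LN3 spleen 1, 2 without LN3 spleen 2, 2 without WT CD8 1, 2 without WT CD8 3, 1 without WT thymocytes 1 and 2 without WT thymocytes 2; it was 6 with the term for the ribosomal RNA share and 6 in the 10 libraries. Gimap4, a GTPase of the immunity-associated family, had 111, 102 and 73.6 CPM in LN3 spleen and 36.9, 95.5 and 187 CPM in LN3 thymus, against 430, 418 and 543 CPM in WT CD8 spleen cells and 76.98, 75.09 and 81.0 CPM in WT thymocytes. All 3 WT CD8 libraries lay above the other groups. Its double difference of −2.73 (adjusted p = 0.0234) was not called in 10 of 24 other settings. S1pr1, the sphingosine phosphate receptor needed for egress, was not called (−2.34, 95% interval −4.72 to 0.05, adjusted p = 0.297).

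Cytotoxic and killer receptor genes did likewise. All 19 tested had a double difference below 0 (median −2.49). Of these, 5 were called lower (Gzmm, Prf1, Eomes, Tbx21 and Ctsw), against 0.895% of all genes tested. In the leukaemia 1 was higher in spleen (0.694% of all genes) and in the controls 17 were (7.24%). The 5 became 8 without LN3 spleen 1, and 1 without LN3 spleen 3, WT CD8 1 or WT thymocytes 1. Leaving out LN3 spleen 2, LN3 thymus 2 or WT thymocytes 2 gave 2 each, and leaving out LN3 thymus 3 or WT CD8 3 gave 3 each. Gzmm, granzyme M, had 2.09, 1.24 and 0.853 CPM in LN3 spleen and 1.43, 1.40 and 1.18 CPM in LN3 thymus, against 9.49, 5.91 and 10.1 CPM in WT CD8 spleen cells and 0.675, 0.674 and 0.687 CPM in WT thymocytes. Only the WT CD8 spleen cells were high (double difference −3.59, adjusted p = 0.00709). NK cell markers, some of them also in this list, moved with it: their sum was 0.0113 to 0.0176% of counts in LN3 spleen, 0.0148 to 0.0201% in LN3 thymus, 0.0220 to 0.0959% in WT CD8 spleen cells and 0.00499 to 0.00642% in WT thymocytes. Of 12 NK markers, 10 were higher in the controls' spleen cells (7.24% of all genes tested), and their part in the cytotoxic result was not tested.

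Chemokine and cytokine receptors went both ways. Ccr4 and Ccr8 were called higher and Cxcr6 lower among 20 chemokine receptors, against 3.29% and 0.895% of all genes tested. Ccr4 had 55.3, 70.3 and 91.3 CPM in LN3 spleen and 40.9, 83.8 and 82.4 CPM in LN3 thymus, against 3.98, 2.69 and 2.27 CPM in WT CD8 spleen cells and 47.6, 44.8 and 86.7 CPM in WT thymocytes. Ccr9, the receptor of gut and thymus homing, just missed the threshold (3.69, adjusted p = 0.0530). Among 24 cytokine receptors, Il2rb, Il18r1, Il18rap and Il27ra were called lower (0.895% of all genes tested) and Tgfbr3 higher (3.29%). Il2rb, the beta chain of the interleukin-2 and interleukin-15 receptors, had 117, 130 and 92.7 CPM in LN3 spleen and 44.2, 130 and 187 CPM in LN3 thymus, against 606, 379 and 538 CPM in WT CD8 spleen cells and 53.0, 43.5 and 91.0 CPM in WT thymocytes (double difference −3.11, adjusted p = 0.0148). The 4 lower calls were 2 without LN3 spleen 3, WT CD8 1 or WT thymocytes 1. Of 22 interferon response genes 1 was called, Oas2 (−2.48, adjusted p = 0.0375), which is near the 4.19% of all genes tested. LN3 was lower than WT for 15 of them in the spleen, where 13.0% of all genes were lower, and for 6 in the thymus, where 5.21% were.

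**Figure D3:**
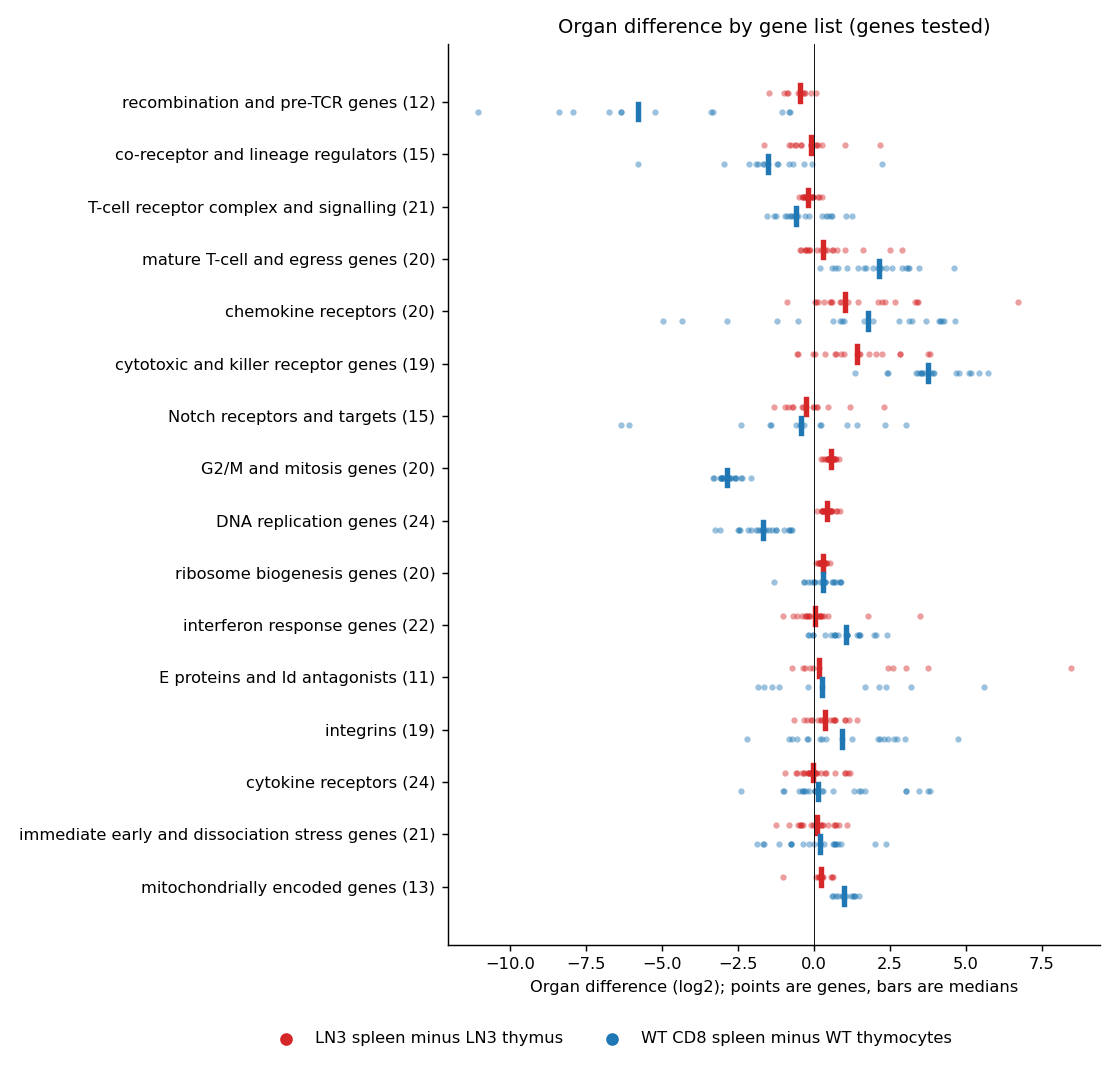
Organ difference (x axis, log2) of each tested member of 16 gene lists in the leukaemia (upper points of each row) and in the controls (lower points), with medians as bars. Control medians reach −5.79 for recombination genes and 3.76 for cytotoxic genes; the leukaemia medians of these lists are −0.45 and 1.41.

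Among controls-only genes with a mean of at least 5 CPM and WT libraries apart, the largest lower double differences were in Pde2a, Ace, Art2b and Sidt1. The largest higher ones, beside Rag1 and Arpp21, were in Acan and Camkv, which had 5 and 3 counts over the WT CD8 libraries. Sidt1, a membrane protein of the SID1 family, had 14.5, 7.49 and 6.88 CPM in LN3 spleen and 7.93, 7.60 and 14.8 CPM in LN3 thymus. It had 391, 360 and 585 CPM in WT CD8 spleen cells and 16.5, 19.7 and 19.8 CPM in WT thymocytes. Its double difference was −4.66 ± 0.51 (adjusted p = 0.000690), with a leukaemia organ difference of −0.09 (95% interval −0.84 to 0.66). Pde2a, a phosphodiesterase, rested on more variable LN3 libraries (77.8, 101 and 16.7 CPM in LN3 spleen, 6.75, 8.92 and 135 CPM in LN3 thymus), and its −5.83 was not called in 16 of 24 other settings. Ace had 26.7, 27.0 and 76.0 CPM in LN3 spleen and 14.2, 17.1 and 61.3 CPM in LN3 thymus. It had 66.5, 131 and 19.2 CPM in WT CD8 spleen cells and 1.48, 0.613 and 2.23 CPM in WT thymocytes. Its −5.18 was not called in 4 of 24 other settings. Acan, the cartilage proteoglycan aggrecan, had 29.6, 13.0 and 48.5 CPM in LN3 spleen and 2.73, 25.9 and 5.15 CPM in LN3 thymus, against 0, 0 and 0.109 CPM in WT CD8 spleen cells and 7.89, 5.57 and 11.3 CPM in WT thymocytes (8.70, adjusted p = 0.00468). Camkv, a kinase-like protein best known from neurons, had 3 counts over the WT CD8 libraries and 744 over the WT thymocytes, a ratio of thymocytes to CD8 cells of 555 with a counting interval of 189 to 2697. Its double difference was not called in 9 of 24 other settings.

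The LN3 difference itself was called in the spleen for 723 of the 875 genes (82.6%) and in the thymus for 284 (32.5%). Over all genes tested it was called for 30.9% in the spleen and 11.3% in the thymus, so an excess of spleen calls is also the background. Both differences enter the double difference. The excess over all genes was nearly gone with the term for the ribosomal RNA share. The calls were then 1519 higher and 1319 lower in the spleen, and 1326 and 1459 in the thymus. Of the 875, LN3 differed from WT in the spleen only for 578, in the thymus only for 139, in both in the same direction for 87, in both in opposite directions for 58 and in neither for 13. Of the 58 genes, 49 were higher than WT in the LN3 spleen and lower in the LN3 thymus, and 9 the reverse. The 49 included Rag1, Arpp21, Aqp11, the transcription factor genes Ets2 and E2f2, the mismatch repair gene Msh6 and the deoxycytidine kinase gene Dck. Msh6 was at 1.70 in the spleen and −0.85 in the thymus, and Ets2 at 2.76 and −1.48; these 5 beyond Rag1 and Arpp21 were chosen after their values were seen.

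Among the 9 was Art2b, a surface ADP-ribosyltransferase of mature T cells whose close copy may share reads with it. It had 13.8, 7.34 and 4.55 CPM in LN3 spleen and 14.1, 19.4 and 20.5 CPM in LN3 thymus, against 67.5, 88.2 and 116 CPM in WT CD8 spleen cells and 4.45, 7.84 and 5.84 CPM in WT thymocytes. No 2 groups of the same genotype overlapped. Its double difference was −4.98 ± 0.57 (adjusted p = 0.000764), from −3.41 in the spleen and 1.57 in the thymus. The leukaemia organ difference was −1.08 (95% interval −1.91 to −0.25, adjusted p = 0.341) and the control one 3.90.

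**Figure D4:**
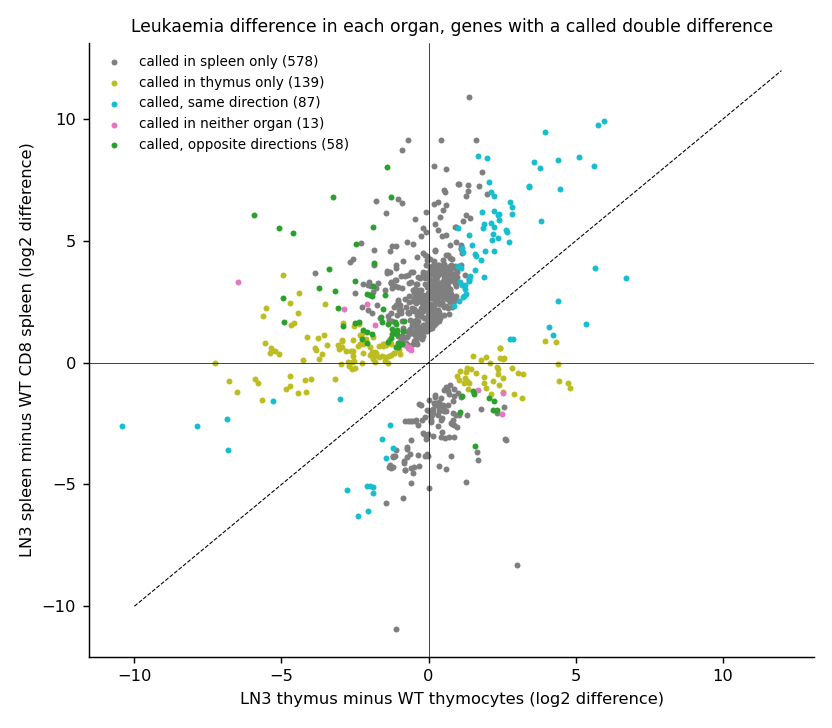
LN3 minus WT (log2) in the spleen (y axis) against the thymus (x axis) for the 875 genes with a called double difference; the dashed line marks equal values. The 49 genes at upper left and the 9 at lower right (green) were called in opposite directions in the organs.

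The 18 leukaemia-only genes, 16 higher and 2 lower, were few against the 834 and included the erythroid markers Car2 and Alas2. Car2, a carbonic anhydrase abundant in erythroid cells, had 207, 60.8 and 354 CPM in LN3 spleen and 0, 0.330 and 0.225 CPM in LN3 thymus. It had 18.2, 102 and 9.33 CPM in WT CD8 spleen cells and 6.95, 6.62 and 10.6 CPM in WT thymocytes. LN3 thymus was the lowest group, below WT thymocytes without overlap. It held 12 counts of Car2 over its libraries, so the size of the leukaemia organ difference rests on few counts. The double difference was 7.78 ± 1.40 (adjusted p = 0.00802), from an organ difference of 10.21 in the leukaemia (adjusted p = 0.00705) and 2.43 in the controls (adjusted p = 0.0710). In the 10 libraries the double difference of Car2 was not called.

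Alas2, the erythroid enzyme that starts haem synthesis, had 85.2, 55.3 and 187 CPM in LN3 spleen and 4.66, 2.64 and 1.52 CPM in LN3 thymus, against 4.04, 16.6 and 1.99 CPM in WT CD8 spleen cells and 62.5, 3.86 and 26.4 CPM in WT thymocytes (7.25 ± 1.37, adjusted p = 0.0104). Tmcc2, a membrane protein of the endoplasmic reticulum, was at 6.81 and was called in all 24 other settings. Xk, which carries the Kx blood group antigen in humans, was at 5.96, also in all 24. Xk had 619 counts over the LN3 spleen libraries and 5 over LN3 thymus, so its size rests on few counts. Pip5k1b, a phosphoinositide kinase, was at 4.48. Ksr2, a scaffold of the RAF and MEK kinases, was lower in spleen: 10.4, 12.2 and 7.79 CPM in LN3 spleen stood against 30.9, 31.4 and 37.3 CPM in LN3 thymus, and 13.9, 7.71 and 14.5 CPM in WT CD8 spleen cells against 8.57, 3.98 and 6.70 CPM in WT thymocytes (−2.62 ± 0.50, adjusted p = 0.0105). It kept its double-difference call in all 24 other settings. The other leukaemia-only genes included Scml2, Fhdc1, Tinagl1, Pheta2, Zfp518b, Abcb4, Sox12, Armcx4, Fbxo30, Tgfbr3 and, lower, Arg1. In the 10 libraries 8 of the 18 kept a called double difference, and none a called leukaemia organ difference by edgeR, although all 18 had an unadjusted p below 0.05 for it.

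Erythroid markers, a list that includes Car2 and Alas2, also stood higher as a sum in LN3 spleen than in LN3 thymus. Their sum was 0.241 to 0.691% of counts in LN3 spleen, 0.0242 to 0.0608% in LN3 thymus, 0.0135 to 0.127% in WT CD8 spleen cells and 0.0139 to 0.465% in WT thymocytes. Of 14 markers tested, 8 were higher in LN3 spleen than in LN3 thymus (0.694% of all genes tested) and none lower (0.0287%). In the controls 5 were higher in WT CD8 spleen cells than in WT thymocytes (7.24%). Alas2 and Car2 were the 2 with a called double difference, both higher (3.29%). None of the markers was at 0 throughout a group. Their part in the leukaemia-only result was not tested. Without LN3 thymus 1, none of the 14 was called between the LN3 organs by edgeR, although 12 had an unadjusted p below 0.05. The 8 were 1 without LN3 thymus 2, 3 without LN3 thymus 3, LN3 spleen 3 or WT thymocytes 3, and 5 without LN3 spleen 1. The 18 leukaemia-only genes were 0 without LN3 thymus 1, 3 without LN3 thymus 2, 6 without LN3 spleen 1, 7 without LN3 spleen 3 or WT thymocytes 1, 9 without WT CD8 1, 11 without LN3 thymus 3 and 45 without WT CD8 2. B cell markers held 0.0510 to 0.570% in LN3 spleen, 0.0451 to 0.0872% in LN3 thymus, 0.0691 to 0.364% in WT CD8 spleen cells and 0.0657 to 0.0753% in WT thymocytes. None of 15 had a called double difference by edgeR, DESeq2 or limma, or an unadjusted p below 0.05. Of 15 myeloid markers none had one by these tools, although 4 had an unadjusted p below 0.05. In the controls 9 of them were higher in WT CD8 spleen cells than in WT thymocytes, against 7.24% of all genes tested. A called double difference was found for 4.19% of all genes tested, so 0 of 15 is near that share.

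**Figure D5:**
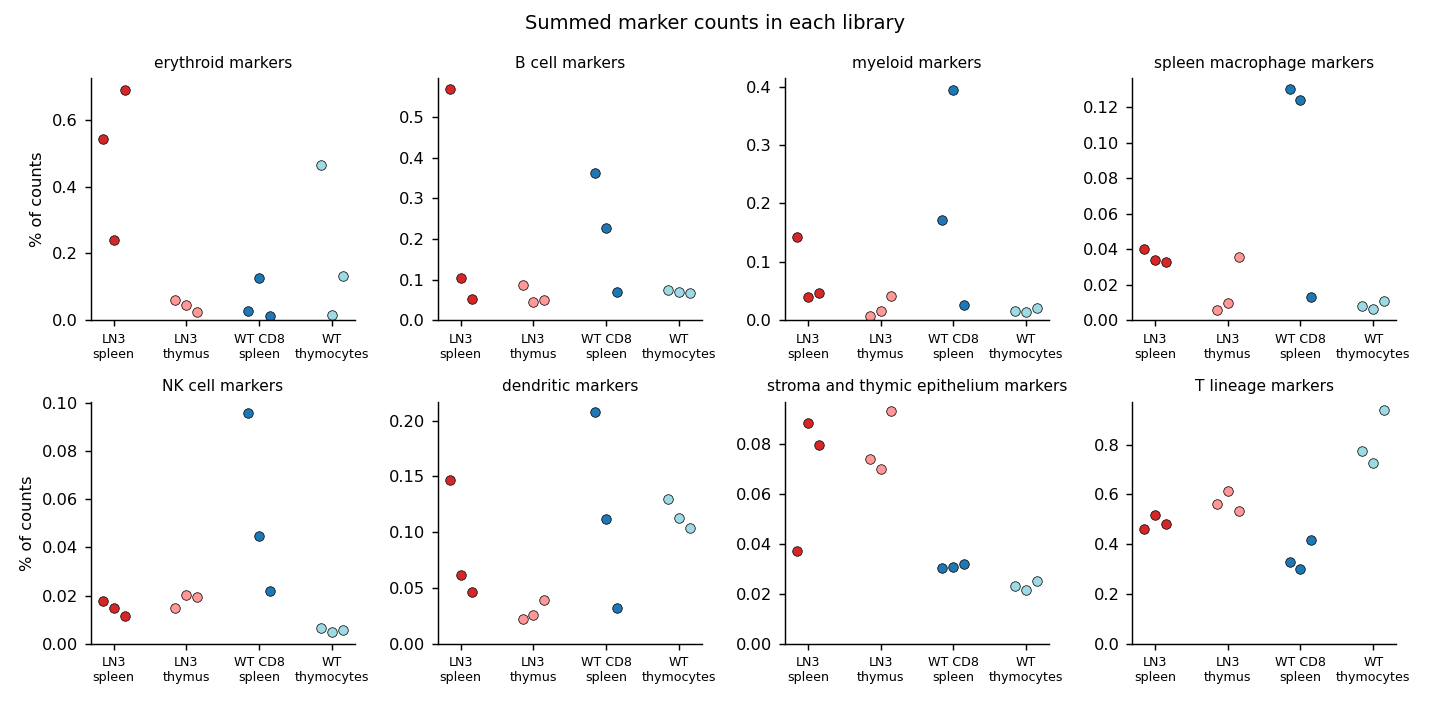
Summed counts of 8 marker lists as a percent of all counts in each library (points), 3 libraries per group. The LN3 spleen libraries hold the highest erythroid sums of the 2 LN3 groups (0.241 to 0.691%, against 0.0242 to 0.0608% in LN3 thymus), and WT thymocytes the highest T lineage sums.

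Of the 875, 3 genes were called between the organs in both leukaemia and controls. Eomes, a transcription factor of cytotoxic and memory cells, had 3.83, 7.32 and 3.98 CPM in LN3 spleen and 1.34, 1.57 and 0.450 CPM in LN3 thymus, against 111, 95.4 and 90.9 CPM in WT CD8 spleen cells and 1.75, 3.92 and 2.49 CPM in WT thymocytes. Spleen stood above thymus in either genotype, by 2.24 (log2) in the leukaemia and 5.18 in the controls, and the double difference of −2.94 (adjusted p = 0.0193) was the gap between them. St3gal6, a sialyltransferase, also stood higher in spleen in either genotype, but more so in the leukaemia (5.67) than in the controls (1.95). The third, the predicted gene Gm45234, had no count in any LN3 spleen library and 91 counts over the LN3 thymus libraries. Set against a floor of 3 counts over the group, it was at least 27-fold lower in LN3 spleen than in LN3 thymus, and it was higher in WT CD8 spleen cells than in WT thymocytes (1.88). It falls outside the rule for named genes and was named because there were only 3. Eomes and St3gal6 were each not called in 7 of 24 other settings.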

How the data were processed

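Polyadenylated RNA of 12 mouse libraries in 4 groups of 3 was sequenced as stranded read pairs, per the labels' protocols. The deposited table holds estimated counts per gene (100% whole numbers). The submitters' processing notes name kallisto 0.46.1, FastQC, DESeq2 and GRCm38. The authors also deposited a log2-scale table after variance stabilization, used in 1 alternative. Estimation shares reads between close gene copies, so those genes are less certain.

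Of 54351 genes, 16997 had no count and 20897 passed filterByExpr and were tested with edgeR 4.0.16 (R 4.3.3): TMM scaling, 4 group means, robust quasi-likelihood test, 8 residual degrees of freedom, Benjamini-Hochberg adjusted p below 0.05 over all genes tested. The common biological coefficient of variation was 0.4411. SE is the log2 difference over the square root of F. CPM use TMM-scaled totals. A count of 3 corresponds to 0.0656 to 0.261 CPM; floors and counting intervals (95%) cover counting error only. Coordinates are GENCODE M21; 20708 tested symbols matched.

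On simulated data for the double difference (19990 genes, 50 changed genes per size), 4% of 2-fold, 32% of 4-fold, 72% of 8-fold and 86% of 16-fold changes were called, with 2 unchanged genes called. All called changes fell in the class that was simulated. That result holds for the simulated data only and does not show that the classes of real genes are stable. In the real libraries the class counts changed when single libraries were left out.

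Named genes were 6 anchors (Rag1, Cd4, Ccr9, S1pr1, Mki67 and Notch1), then, at a mean of at least 5 CPM with libraries apart in the deciding organ difference and no predicted or receptor segment name, the largest double differences in each class and direction (4 controls only, 5 leukaemia only, 4 both, 2 neither), and the largest called member of each programme list. Other list members named were chosen after their values were seen. The genes, classes and 24 lists (16 programme, 8 marker) were chosen with earlier results of these data known. Other scalings, filters, tools (DESeq2 1.42.0, limma 3.58.1), replicate blocks and left-out libraries were tried. Some genes are not reported here.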

Additional observations from a re-analysis of the deposited data

Results flagged for a closer look

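The double difference itself is a difference between organs of the leukaemia effect, so each gene called in it is a result that differed between groups by a test of that difference (edgeR, Benjamini-Hochberg adjusted p below 0.05): 688 genes were higher and 187 lower. For 58 of them LN3 differed from WT in opposite directions in spleen and thymus, each with its own call.

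Among the named genes, 4 had such opposite calls. The double difference (log2) was 10.07 for Rag1, 8.06 for Arpp21, 7.25 for Alas2 and −4.98 for Art2b. For Alas2 the LN3 thymus libraries (4.66, 2.64 and 1.52 CPM) overlapped the WT thymocytes (62.5, 3.86 and 26.4 CPM). Its double difference was not called in 2 of 24 other settings. Groups of 3 were too small to test within a group whether single libraries stood apart. Leaving out 1 library at a time did show dependence on single libraries. The 145 higher and 6 lower calls between the LN3 organs were 0 and 0 without LN3 thymus 1.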

How the results depend on the processing

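No named gene changed the sign of its double difference in any setting. Double differences were called for 894 genes with upper-quartile scaling, 813 with library totals, 905 with RLE scaling, 851 with no filter, 907 with a CPM filter, 805 with limma voom and 866 on variance-stabilized values. Upper-quartile scaling and library totals moved the median double difference of all genes by −0.163 and −0.207, and that of LN3 minus WT by −0.328 and −0.40 in the spleen and −0.163 and −0.192 in the thymus. The balance of some counts turned. With library totals, LN3 was higher than WT for 2529 genes and lower for 3780 in the spleen, and for 1021 and 1647 in the thymus. The controls' 1513 higher and 1773 lower calls became 1787 and 1687 with the term for the ribosomal RNA share, and 1410 and 1192 without WT CD8 3.

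DESeq2 called more: 1269 higher and 490 lower, 585 and 67 between the LN3 organs, and 1560 controls only, 88 leukaemia only, 39 both and 72 neither. Calls between the LN3 organs (higher, lower) were 41 and 2 with library totals (leukaemia only 5), 22 and 2 with voom (leukaemia only 6, both 1), and 38 and 3 with the term for the ribosomal RNA share (9 and 1). That term and the 10 libraries were chosen after seeing the data. In the 10 libraries the double difference was lower for 298 genes, with 0 and 0 between the LN3 organs, 0 leukaemia only and 0 both. Without the filter, 14 genes were lower between the LN3 organs and 6 were in both. With an adjusted p below 0.1 in the organ differences, 10 were in both and 9 in neither; by the larger organ difference alone, 44 were leukaemia only.

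For same-numbered libraries of the 2 organs, deviations from the group means were correlated at −0.15, −0.53 and −0.04 in LN3. In WT the correlations were 0.04, 0.00023 and −0.14. Groups of 3 and unlike ribosomal RNA shares (0.440% in LN3 thymus 1, 9.71% in LN3 spleen 1) limit this check. It cannot show whether equal numbers mark pairs. A replicate block gave 427 higher and 105 lower, 29 and 2 between the LN3 organs, and 510 controls only, 6 leukaemia only and 1 both. A block within genotype gave 213 and 32, with 707 and 1005 in the controls, 36 and 2 in LN3, and 232, 6, 1 and 6 by class.

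Leaving out 1 library gave 380 to 664 higher and 76 to 226 lower double differences, 717 to 1561 and 1013 to 1807 in the controls, 0 to 245 and 0 to 10 between the LN3 organs, and 442 to 846 controls only, 0 to 45 leukaemia only, 0 to 8 both and 4 to 35 neither. The causes of these moves were not tested. With 3 libraries per group, double differences under 4-fold were mostly beyond reach on simulated data.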

Other observations

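In several further gene groups the share of called double differences was near or below the 4.19% of all genes tested, which at these list sizes is 1 gene or none. Of 21 genes of the T-cell receptor complex and its signalling none was called by edgeR (2 at an unadjusted p below 0.05, 1 by DESeq2, 0 by limma). In the LN3 spleen 5 were lower than WT and 1 higher, against 13.0% and 17.9% of all genes tested. With library totals as scaling 9 were lower and 0 higher, against 3780 and 2529 of all 20897 genes. With the term for the ribosomal RNA share 7 were lower and 0 higher, against 1319 and 1519. Of 20 ribosome biogenesis genes 1 was called in the double difference, Wdr12, at 1.43. Of 13 mitochondrially encoded genes none was (3 at an unadjusted p below 0.05, 1 by DESeq2, 0 by limma), and of 21 immediate early and dissociation stress genes none (3, 2 and 0). Of 19 integrins 1 was: Itga2, at −4.59, with 2.18, 0.810 and 0.910 CPM in LN3 spleen and 0.629, 0.909 and 1.86 CPM in LN3 thymus, against 45.8, 14.1 and 11.5 CPM in WT CD8 spleen cells and 1.35, 1.10 and 0.172 CPM in WT thymocytes. Itga2 is also 1 of the NK cell markers. Their sums, which include it, were 0.0959, 0.0450 and 0.0220% of counts in WT CD8 1 to 3, in the same order. The part of NK cells in the Itga2 result was not tested.

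In 20 genes neither organ difference was called although their double difference was. Txk, a Tec family kinase of T cells, had 18.7, 22.4 and 15.4 CPM in LN3 spleen and 25.8, 39.6 and 36.0 CPM in LN3 thymus, against 166, 137 and 198 CPM in WT CD8 spleen cells and 98.4, 108 and 93.8 CPM in WT thymocytes. Its organ difference was −0.84 in the leukaemia and 0.74 in the controls, with adjusted p-values of 0.177 and 0.0515, and its double difference −1.58 (adjusted p = 0.0195). Cmklr1, the chemerin receptor, was at −1.60 in the leukaemia and 1.71 in the controls. Mgst3 and Ctse ran the other way, at 4.21 and 3.93 in the leukaemia and −1.69 and −1.16 in the controls, and each of these 4 was not called in 10 to 17 of 24 other settings. Ctse had 18.44, 46.2 and 18.45 CPM in WT CD8 spleen cells and 14.6, 10.1 and 162 CPM in WT thymocytes. Its negative control difference thus rested on WT thymocytes 3.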
